A study of Arabidopsis thaliana with 10 samples.

Results

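Seedlings of Arabidopsis thaliana that lack PIF1, PIF4 and PIF5 and keep PIF3 (pif145) were compared with wild type (WT), both in the Columbia background and both grown in darkness. The comparison takes 6 of the 30 libraries of the series, 3 biological replicates (A, B and C) of each genotype. Per the labels, stratified seeds were given white light for 3 h and then far-red light for 15 min, and whole 2-day-old seedlings were harvested after 48 h in the dark at 21 °C. The mutant alleles are not given in the sources used here. A further 3 genotypes grown in the same way serve as points of reference: pif345, which keeps PIF1, pif135, which keeps PIF4, and the quadruple mutant pifq, which lacks PIF1, PIF3, PIF4 and PIF5. Polyadenylated 3′ ends were sequenced from 20 µg of total RNA per library.

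PHYTOCHROME INTERACTING FACTORS (PIFs) are basic helix-loop-helix transcription factors that accumulate in darkness. They keep the seedling in its dark form, with a long hypocotyl, closed cotyledons and undeveloped plastids. In the light, activated phytochromes bind the PIFs and trigger their degradation. PIFs bind the G-box, CACGTG, and the related PBE-box, CACATG, in the promoters of their target genes. PIF1 is best known as a repressor of seed germination.

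The WT libraries held 28.75 M, 43.97 M and 30.61 M counts, and the pif145 libraries 28.37 M, 20.82 M and 19.52 M. Levels are given in CPM, counts scaled by library size, and were not compared between genes. A locus was called when its adjusted p was under 0.05 in edgeR's quasi-likelihood test over all 18680 tested loci, with n = 3 per group, and ± is the standard error (SE) of a log2 fold change. Same-letter replicates of pif145 and pifq deviated together (correlations of 0.238 to 0.47), as did those of pif145 and pif135 (0.196 to 0.781). With pif345 the correlations were 0.0925 to 0.447, and with WT -0.0894 to 0.268. Other genotypes were not part of this check. The labels name no batch. Whether WT and pif145 were handled apart is not known, and such a difference cannot be told apart from one between the genotypes. In whole seedlings, fewer cells of a type and less RNA per cell cannot be told apart.

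The transcripts of the 4 PIF genes were examined first, since they check the genotype. PIF3 (AT1G09530, chr1:3075768-3079654 in TAIR10.1) held 69.8, 82.7 and 69.0 CPM in WT and 90.2, 95.2 and 129.5 CPM in pif145 A, B and C. All 3 pif145 libraries lay above all 3 of WT, but the difference did not pass the test (log2 fold change 0.51 ± 0.29, adjusted p = 0.271 by edgeR). The retained PIF3 transcript stood far above the mean of 1.93 CPM in pifq (5.77 ± 0.37, adjusted p = 2.65e-11). PIF5 (AT3G59060, chr3:21827905-21830837) held 7.39, 7.02 and 6.97 CPM in WT and 0.276, 0.379 and 0.106 CPM in pif145, a fall by 4.76 ± 0.54 on the log2 scale (adjusted p = 1.87e-06).

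PIF1 (AT2G20180, chr2:8704024-8707009) held 22.6, 20.7 and 31.8 CPM in WT and 3.04, 5.07 and 14.9 CPM in pif145. Replicate C held several times the level of A and B and still lay below every WT library. Its log2 fold change of -1.71 ± 0.59 had an adjusted p of 0.0568 by edgeR, and without pif145 C it was -2.63 with an adjusted p of 0.0164. The 3′ end of PIF1 overlaps AT2G20170 on the opposite strand, so reads of the neighbour could enter its count. In other mutants that lack PIF1 it held 2.79, 2.88 and 5.69 CPM (pifq) and 12.4, 2.28 and 2.43 CPM (pif135). The source of the higher PIF1 level in pif145 C was not tested. PIF4 (AT2G43010, chr2:17886101-17889087) was higher in the mutant, at 24.7, 39.2 and 61.7 CPM against 13.6, 11.7 and 10 CPM in WT (1.83 ± 0.34, adjusted p = 0.000667). Reads come from the 3′ end, so transcripts from beyond a disruption can be counted, and the level of PIF4 does not check the genotype label.

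**Figure D1:**
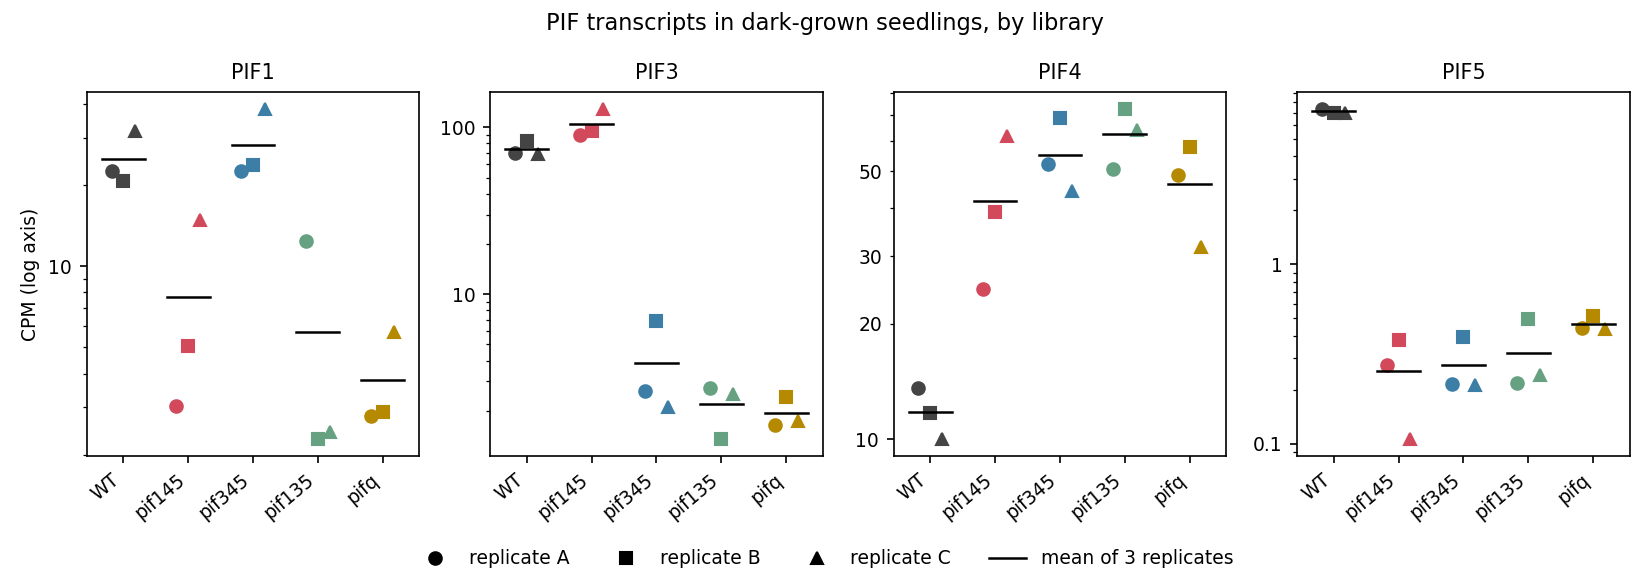
CPM (log axis) of PIF1, PIF3, PIF4 and PIF5 in each library of 5 genotypes, with symbols for replicates A, B and C and a line at the mean of 3. PIF3 in pif145 (90.2 to 129.5 CPM) lies with WT and far above pif345, pif135 and pifq, and PIF1 in pif145 C (14.9 CPM) lies above pif145 A and B.

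Replicate C of pif145 stood apart from A and B beyond PIF1. On the first principal component of all 30 libraries, which held 33.4% of the variance, pif145 A and B lay at 10.22 and 28.14 and pif145 C at 69.01, where pifq lay between 58.94 and 68.98 and WT between -60.8 and -47.64. Of the loci called higher in pif145 than in WT, replicate C was the highest of the 3 pif145 libraries in 75.8%, against 37.1% of all tested loci. Of those called lower it was the lowest in 63.3%, against 33.6% of all tested loci. Over the higher calls the median distance from the WT mean, in log2(CPM + 0.5), was 0.89 in A, 0.98 in B and 1.56 in C. Values without replicate C stand beside most results below where leaving it out ended a call or moved a fold change or a count by over 1.5 times.

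**Figure D2:**
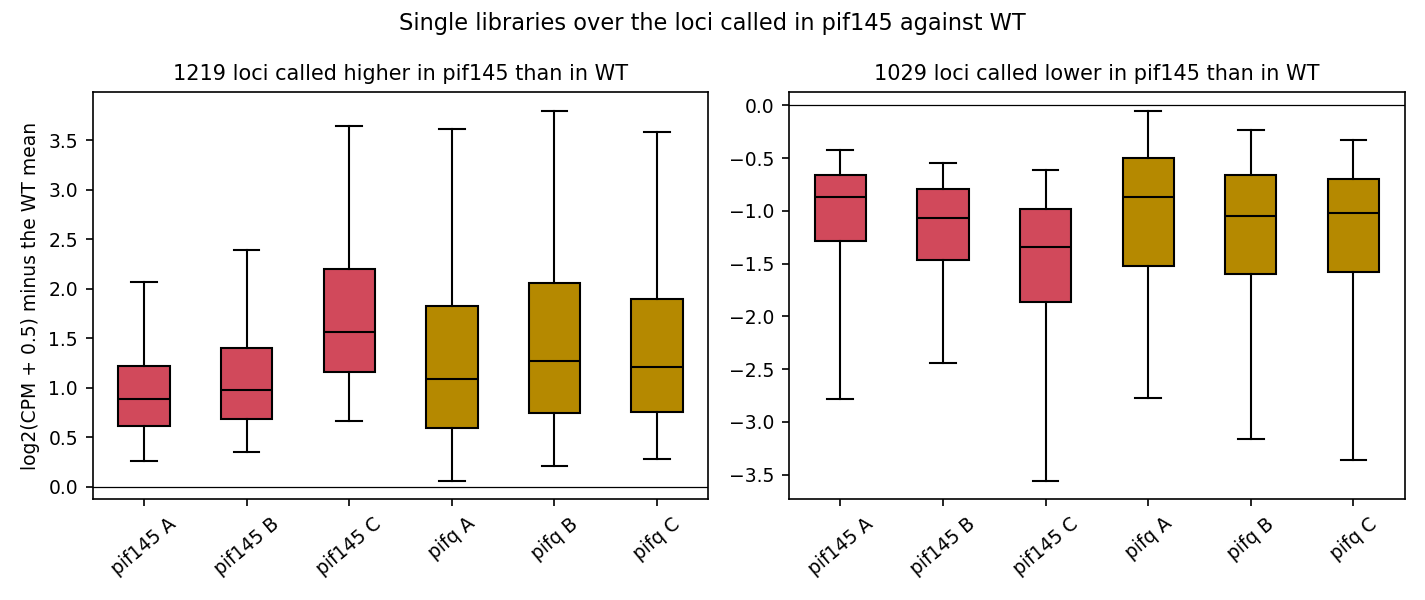
Distance of single libraries from the WT mean, in log2(CPM + 0.5), over the loci called higher (left, 1219) and lower (right, 1029) in pif145 than in WT. Boxes span the quartiles with a line at the median, and whiskers the 5th to 95th percentiles. Medians are 0.89, 0.98 and 1.56 in pif145 A, B and C on the left and -0.87, -1.07 and -1.34 on the right.

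Against WT, 2248 loci were called in pif145, 12% of those tested. The calls split into 1219 loci higher (6.53%) and 1029 lower (5.51%), and 1662 (8.9%) passed a 2-fold change. An unadjusted p under 0.05 was reached by 26.8% of the tested loci. Without pif145 C the count fell to 865, with 462 higher and 403 lower, and without WT A or WT C it was 1360 or 1287. With only the 2 genotypes in the fit it was 983. The calls below were lost there for BHLH39, CHI, CLA1, FAMA, FER3, FHL, GLK2, JAZ1, MLS, NSP5, PSY, RBCS1A, RGL2, SAUR9, SAUR23, TGG1 and XTH33. Those against WT of LTI78, PGL2, RD20 and TIP2;3, taken up with pifq, were lost too. All 3 pif145 libraries lay above or below all 3 WT libraries in 4987 loci, 26.7% of those tested. With the same WT libraries as reference, pif345 had 726 calls (3.89%), pif135 2338 (12.5%) and pifq 2831 (15.2%). In direct tests pif145 differed from pif135 in 21 loci (0.112%), from pifq in 103 (0.551%) and from pif345 in 283 (1.51%).

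**Figure D3:**
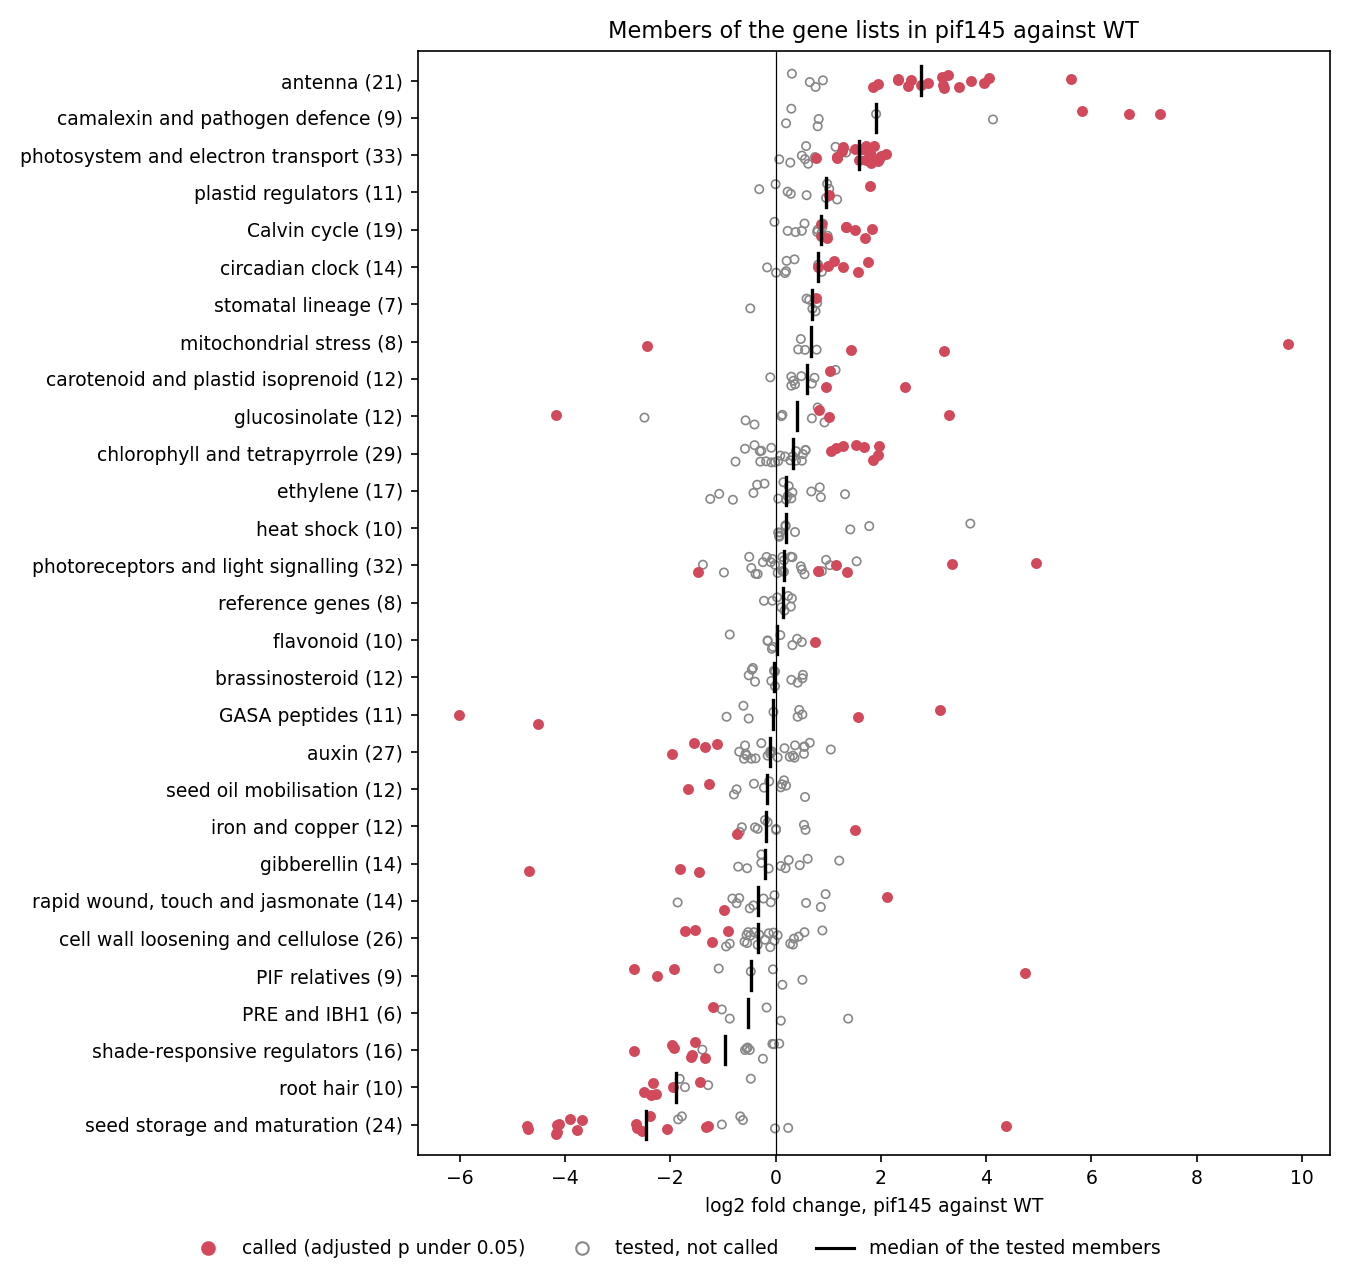
Log2 fold changes in pif145 against WT for the tested members of 29 gene lists, ordered by their medians (black lines), with the number tested in brackets. Filled points were called. The antenna list has the highest median (2.77) and the seed storage and maturation list the lowest (-2.46), and all 8 reference genes are open points close to 0.

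Although the seedlings had grown in the dark, genes for photosynthesis rose in pif145. Of the antenna list, 21 light-harvesting genes whose products bind chlorophyll around the photosystems, 17 members rose and 0 fell, with a median log2 fold change of 2.77 against 0.02 over all tested loci. The count was 17 or 18 when any 1 of the 6 libraries was left out. LHCB1.4 (AT2G34430, chr2:14524607-14525918), a protein of the main antenna of photosystem II, held 91.4, 112 and 145 CPM in WT and 3719, 3111 and 10179 CPM in pif145. The groups lay far apart, with pif145 C the highest (5.61 ± 0.55, adjusted p = 2.23e-07). The difference was 4.88 without pif145 C (adjusted p = 5.77e-07).

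Other genes of the main antenna rose as well. LHCB1.5 rose by 4.06 ± 0.43, LHCB1.1 by 3.96 ± 0.46 and LHCB2.2 by 3.72 ± 0.33 on the log2 scale, and these near-identical LHCB1 copies may share reads. LHCA1, of the photosystem I antenna, went from 269, 396 and 529 CPM to 2781, 2664 and 7987 CPM (3.49 ± 0.50, adjusted p = 3.13e-05, and 2.77 without pif145 C). LHCB3 rose by 3.17 ± 0.44. The smallest called change was that of LHCB4.1, which binds pigment in the minor antenna (1.86 ± 0.32, adjusted p = 0.000272). LHCB1.3 was already abundant in WT, at 3705, 1000.2 and 1640.2 CPM, and held 19251, 8339.8 and 10195 CPM in pif145 (2.57 ± 0.55, adjusted p = 0.00239, and 3.25 without WT A). Summed over the list, the antenna transcripts took 6084 to 8201 CPM in WT, 40944 to 77542 in pif145 and 57443 to 83999 in pifq.

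Of 33 nuclear genes for photosystem and electron transport subunits, 24 rose and 0 fell (median 1.59), and 19 rose without pif145 C. PSBQ2, a subunit of the oxygen-evolving complex, held 253, 318 and 240.0 CPM in WT and 1252, 600.3 and 1600.1 CPM in pif145 (2.09 ± 0.33, adjusted p = 0.000121). PSAE2, on the stromal side of photosystem I, rose by 2.00 ± 0.32, and PSBR, of photosystem II, by 1.97 ± 0.31. Calvin cycle genes, which fix carbon, rose in 8 of 19 cases (median 0.87), with 4 to 7 called when 1 library was left out. The plastid glyceraldehyde-3-phosphate dehydrogenase genes led them, GAPA2 with 1.84 ± 0.34 (adjusted p = 0.000708) and GAPA1 with 1.70 ± 0.42 (adjusted p = 0.00792). RBCS1A, a small subunit of Rubisco, was at 2268, 5466 and 2147 CPM in pif145 and at 1154, 837 and 1488 CPM in WT. Its adjusted p of 0.0344 became 0.228 without pif145 B and 0.102, 0.119 and 0.058 without WT A, B and C.

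Pigment pathways moved in part. Of 29 chlorophyll and tetrapyrrole genes 8 rose and 0 fell (median 0.33), where 6.53% of all tested loci were called higher. The rises numbered 5 without WT C and 6 without WT A, pif145 B or pif145 C, and 1 gene fell without pif145 A. HEMA1, the glutamyl-tRNA reductase gene at the start of tetrapyrrole synthesis, held 125, 104 and 120.2 CPM in WT and 394, 302 and 644 CPM in pif145 (1.94 ± 0.28, adjusted p = 3.11e-05). GUN4, an activator of magnesium chelatase, rose by 1.96 ± 0.47, and CHLM, the methyltransferase after the chelatase, by 1.86 ± 0.34. In the carotenoid and plastid isoprenoid list 3 of 12 rose: the carotene hydroxylase BCH2 (2.46 ± 0.37), CLA1, the first enzyme of the plastid isoprenoid route (1.03 ± 0.21), and the phytoene synthase PSY (0.96 ± 0.31). PSY had an adjusted p of 0.0423 that became 0.246 without pif145 C and also passed 0.05 without pif145 B or any single WT library.

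Among 11 plastid regulators, SIG5, a sigma factor of the plastid RNA polymerase, rose by 1.80 ± 0.49 (adjusted p = 0.0156), and GLK2, a transcription factor for chloroplast genes, by 1.01 ± 0.28 (adjusted p = 0.0177). The share called higher over all tested loci was 6.53%. The SIG5 call was lost without pif145 C (adjusted p = 0.0719) or WT B (0.0846). The GLK2 call was lost without pif145 B (adjusted p = 0.125), WT A (0.055) or WT C (0.0937). With the same WT libraries, the antenna list had 17 rises in pifq, 18 in pif135 and 15 in pif345, at medians of 3.22, 2.94 and 1.75, and the photosystem list had 27, 27 and 8. Loci higher than WT made up 8.01%, 6.78% and 2.39% of all tested loci in these 3 mutants.

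The light-signalling list gave 5 rises and 1 fall among 32 tested genes (median 0.16). Over all tested loci 6.53% were called higher and 5.51% lower. The B-box proteins BBX16 and BBX25, zinc-finger regulators of light responses, were close to the detection limit in WT. BBX16 held 0, 0.0856 and 0.263 CPM there, 12 reads in all, and 2.84, 2.27 and 6.25 CPM in pif145 (adjusted p = 2.25e-05). BBX25 rose from 0.534, 0.514 and 0.821 CPM to 4.54, 6.11 and 8.53 CPM (3.35 ± 0.48, adjusted p = 3.73e-05). SPA1, a partner of the COP1 ubiquitin ligase, rose by 1.36 ± 0.31, and BBX24 by 1.15 ± 0.21. The single fall was that of ELIP1, an early light-induced chlorophyll-binding protein, which is taken up with pifq.

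Part of the clock genes rose in pif145. Of 14 circadian clock genes 6 rose and 0 fell (median 0.80), and 4 rose without pif145 C. A call as higher was reached by 6.53% of all tested loci. CCA1, a MYB transcription factor of the central loop (AT2G46830, chr2:19245591-19248915), held 28.0, 24.5 and 24.6 CPM in WT and 55.2, 84.9 and 48.3 CPM in pif145 (1.29 ± 0.24, adjusted p = 0.000575). Its relative RVE1, which links the clock to auxin, held 19.5, 10.9 and 15.6 CPM in WT and 31.6, 64.1 and 39.4 CPM in pif145 (1.56 ± 0.33, adjusted p = 0.00261). Replicate B was the highest in both. LHY, the partner of CCA1, rose by 1.11 ± 0.22, and the pseudo-response regulator PRR5 by 1.75 ± 0.46 (adjusted p = 0.0116, and 0.0598 without WT C).

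The 250 bases before the RefSeq gene start were searched for the G-box, CACGTG, and the PBE-box, CACATG, on both strands in all tested loci with such a window. A G-box stood in 42.9% of the windows of the 14 clock genes, in 8.95% of those of the loci called higher, in 11.6% of those called lower and in 7.63% of all 18669. The PBE-box stood in 7.14%, 11.5%, 15.4% and 11.3% of the same sets, in that order. The windows of CCA1 (TAIR10.1, chr2:19245341-19245590, plus strand) and RVE1 (chr5:5692993-5693242, minus strand) are printed because both rose in pif145 and carry a G-box, in capitals, which starts 193 and 111 bases before the gene.
CCA1: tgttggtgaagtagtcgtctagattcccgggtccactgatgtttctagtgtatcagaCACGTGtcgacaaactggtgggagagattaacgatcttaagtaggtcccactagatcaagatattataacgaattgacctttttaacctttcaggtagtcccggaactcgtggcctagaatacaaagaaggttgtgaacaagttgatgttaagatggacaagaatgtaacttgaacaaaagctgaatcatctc
RVE1: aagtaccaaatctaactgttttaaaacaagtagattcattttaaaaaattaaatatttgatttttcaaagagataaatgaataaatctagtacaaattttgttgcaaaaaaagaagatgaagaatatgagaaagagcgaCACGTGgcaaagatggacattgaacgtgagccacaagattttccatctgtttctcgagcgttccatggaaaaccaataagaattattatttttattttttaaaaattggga

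A match to these letters describes the window and does not show that a PIF binds there.

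Shade-responsive regulators fell. These genes are raised by PIFs when light is low in red, and 7 of 16 were lower in pif145 while 0 were higher (median -0.96), with 5 or 6 called when 1 library was left out. PIL1 (AT2G46970, chr2:19295431-19297858), a small helix-loop-helix protein of the PIF family, held 45.9, 63.2 and 54.5 CPM in WT and 9.28, 7.10 and 8.90 CPM in pif145 (-2.69 ± 0.27, adjusted p = 2.64e-07). HFR1, which forms inactive dimers with PIFs, held 91.6, 56.6 and 58.7 CPM in WT and 14.7, 14.3 and 25.3 CPM in pif145 (-1.93 ± 0.29, adjusted p = 7.15e-05). The homeodomain gene HB-2 fell by 1.59 ± 0.23 on the log2 scale, the auxin repressor IAA29 by 1.96 ± 0.44 and its relative IAA19 by 1.34 ± 0.28. The phytochrome A transport gene FHL fell by 1.6 ± 0.52 (adjusted p = 0.044), a call lost without any single WT library, pif145 B or pif145 C (0.0515 to 0.178).

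The list of 9 PIF relatives, which holds PIL1 and HFR1 again among its falls, had 1 rise and 3 falls. The shares over all tested loci were 6.53% higher and 5.51% lower. PIF7, a PIF of the shade response, held 0.164, 0.171 and 0 CPM in WT, 12 reads in all, and 4.34, 2.6 and 2.65 CPM in pif145 (adjusted p = 1.95e-06). PIL2 and PIF7 overlap other loci on the opposite strand at their 3′ ends. PIL2 fell by 2.26 ± 0.40. In the list of 6 genes that holds the growth-promoting PRE proteins and their antagonist IBH1, PRE5 fell by 1.19 ± 0.35 (adjusted p = 0.0234), a call lost without pif145 C (0.112), pif145 A (0.073), WT A (0.0781) or WT C (0.0746).

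The hormone lists were set beside shares of 6.53% higher and 5.51% lower over all tested loci. The auxin list had 4 falls among 27 genes (median -0.10), IAA29 and IAA19 again with SAUR9 and SAUR23, small auxin-induced proteins, and 2 falls without pif145 C or WT A. SAUR9 (adjusted p = 0.0483) was not called without WT A (0.38), WT C (0.0618), pif145 B (0.148) or pif145 C (0.214), nor was SAUR23 without WT A, pif145 A or pif145 C (0.0527 to 0.24). The ethylene list (17 genes) and the brassinosteroid list (12) had 0 calls by edgeR in the main fit. The smallest adjusted p were 0.0567 for ACS8, an ethylene synthesis enzyme, and 0.112 for CPD, a brassinosteroid synthesis enzyme. By edgeR, ACS8 was called lower with scaling by total counts (adjusted p = 0.04) and with the replicate letter as a block (0.0116). It was also called lower without WT B (0.0242) and without the libraries labelled pif134 (0.038). Without pif145 A 1 ethylene gene was called higher, and without pif145 B 1 was called lower. CPD was called higher with the replicate letter as a block (adjusted p = 0.0476). An unadjusted p under 0.05 was reached by 5 ethylene genes and 1 brassinosteroid gene, against 26.8% of all tested loci. DESeq2 called 2 and 0 genes of these lists. Of 14 gibberellin genes 3 fell and 0 rose.

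GA20OX3, which makes gibberellin precursors, held 4.07, 5.01 and 6.54 CPM in WT and 0.197, 0.379 and 0 CPM in pif145 (-4.69 ± 0.67, adjusted p = 3.18e-05, and -5.51 without pif145 B). GA3OX1, the enzyme of the last activating step, fell by 1.82 ± 0.26 and the DELLA repressor RGL2 by 1.46 ± 0.45 (adjusted p = 0.031, and 0.181 without pif145 C, 0.115 without WT A and 0.0601 without WT C). Of 11 GASA peptides, small cysteine-rich proteins under gibberellin control, 2 fell and 2 rose. GASA2 held 8.66, 8.07 and 13.4 CPM in WT and 0.197, 0.237 and 0 CPM in pif145 (-6.01 ± 0.70, adjusted p = 2.48e-06), and GASA3 fell by 4.52 ± 0.53. GASA6 rose by 1.56 ± 0.39 (adjusted p of 0.0651 without pif145 B) and AT1G22690 by 3.13 ± 0.52.

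The list for cell wall loosening and cellulose had 26 genes, of which 4 fell and 0 rose (median -0.33). Without pif145 C or without WT A 1 fell. The share called lower over all tested loci was 5.51%. XTH19, a xyloglucan-modifying enzyme, held 170.1, 105 and 116 CPM in WT and 41.2, 46.3 and 31.0 CPM in pif145 (-1.72 ± 0.35, adjusted p = 0.0015). XTH17 (-1.53 ± 0.41) and XTH33 (-1.20 ± 0.30) had adjusted p of 0.0926 and 0.0774 without pif145 C, and of 0.143 and 0.132 without WT A.

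Transcripts of seed proteins were lower in pif145. In the seed storage and maturation list 16 of 24 genes fell and 1 rose, with a median log2 fold change of -2.46, and the falls numbered 12 without pif145 C. Summed over the list, these transcripts took 3959, 5163 and 6457 CPM in the WT libraries and 274, 664 and 181 CPM in pif145, so that the groups lay far apart. CRA1, a cruciferin that stores nitrogen in the seed, held 1836, 3049 and 3696 CPM in WT and 61.3, 251 and 15.1 CPM in pif145 (-4.71 ± 1.09, adjusted p = 0.00514). EM1 (AT3G51810, chr3:19214722-19215831), a late embryogenesis abundant protein, held 41.0, 42.8 and 44.7 CPM in WT and 3.08, 2.60 and 1.32 CPM in pif145 (-4.18 ± 0.53, adjusted p = 6.54e-06). Its relative EM6 went from 535, 713 and 877 CPM to 22.0, 44.8 and 13.0 CPM (-4.73 ± 0.91, adjusted p = 0.00114).

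The oil body proteins moved with the storage proteins. OLEO1, OLEO2 and OLEO4, oleosins that coat oil bodies, fell by 3.67 ± 0.68, 3.78 ± 0.55 and 2.66 ± 0.54, and the caleosin ATS1 by 4.12 ± 0.70. Replicate B held more of these transcripts than A and C, and without it the log2 fold change was -6.23 for CRA1, -5.34 for EM6, -4.42 for OLEO1, -3.74 for OLEO4 and -5.03 for ATS1. The embryo regulator ABI3 fell by 1.28 ± 0.37 (adjusted p = 0.0227), a call lost without WT A, WT C or pif145 C (0.0503 to 0.152). The 1 rise, that of SESA4, rested on 1 read in WT and 19 in pif145, most of them in replicate B (adjusted p = 0.0382), and was lost without any single WT library, pif145 C or, at 0.578, pif145 B. A G-box stood in 50% of the 24 windows of this list and a PBE-box in 41.7%, and the OLEO3 window is printed with pifq. Among the 12 largest falls of all loci, AT3G01570, an oleosin family member, fell by 4.37 ± 0.77, and AT1G14930, AT1G14950 and MLP31, annotated as lipid transport or MLP-like proteins, by 5.58 ± 0.77, 4.49 ± 0.78 and 5.32 ± 0.77.

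Breakdown of seed oil, which feeds the seedling until it is green, had 2 falls among 12 genes (median -0.17). Of all tested loci, 5.51% were called lower. MLS, the malate synthase of the glyoxylate cycle, held 1611, 936 and 1320.3 CPM in WT and 658, 496 and 72.2 CPM in pif145 (-1.66 ± 0.45, adjusted p = 0.0141), a call lost without WT A (0.0634). MFP2, of peroxisomal beta-oxidation, fell by 1.26 ± 0.22 (adjusted p = 0.000438). ICL, the isocitrate lyase of the same cycle as MLS, held 33331 and 17833 CPM in pif145 A and B and 2466 CPM in C, against 32758, 17176 and 21443 CPM in WT. Replicate C was thus low where A and B lay with WT.

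**Figure D4:**
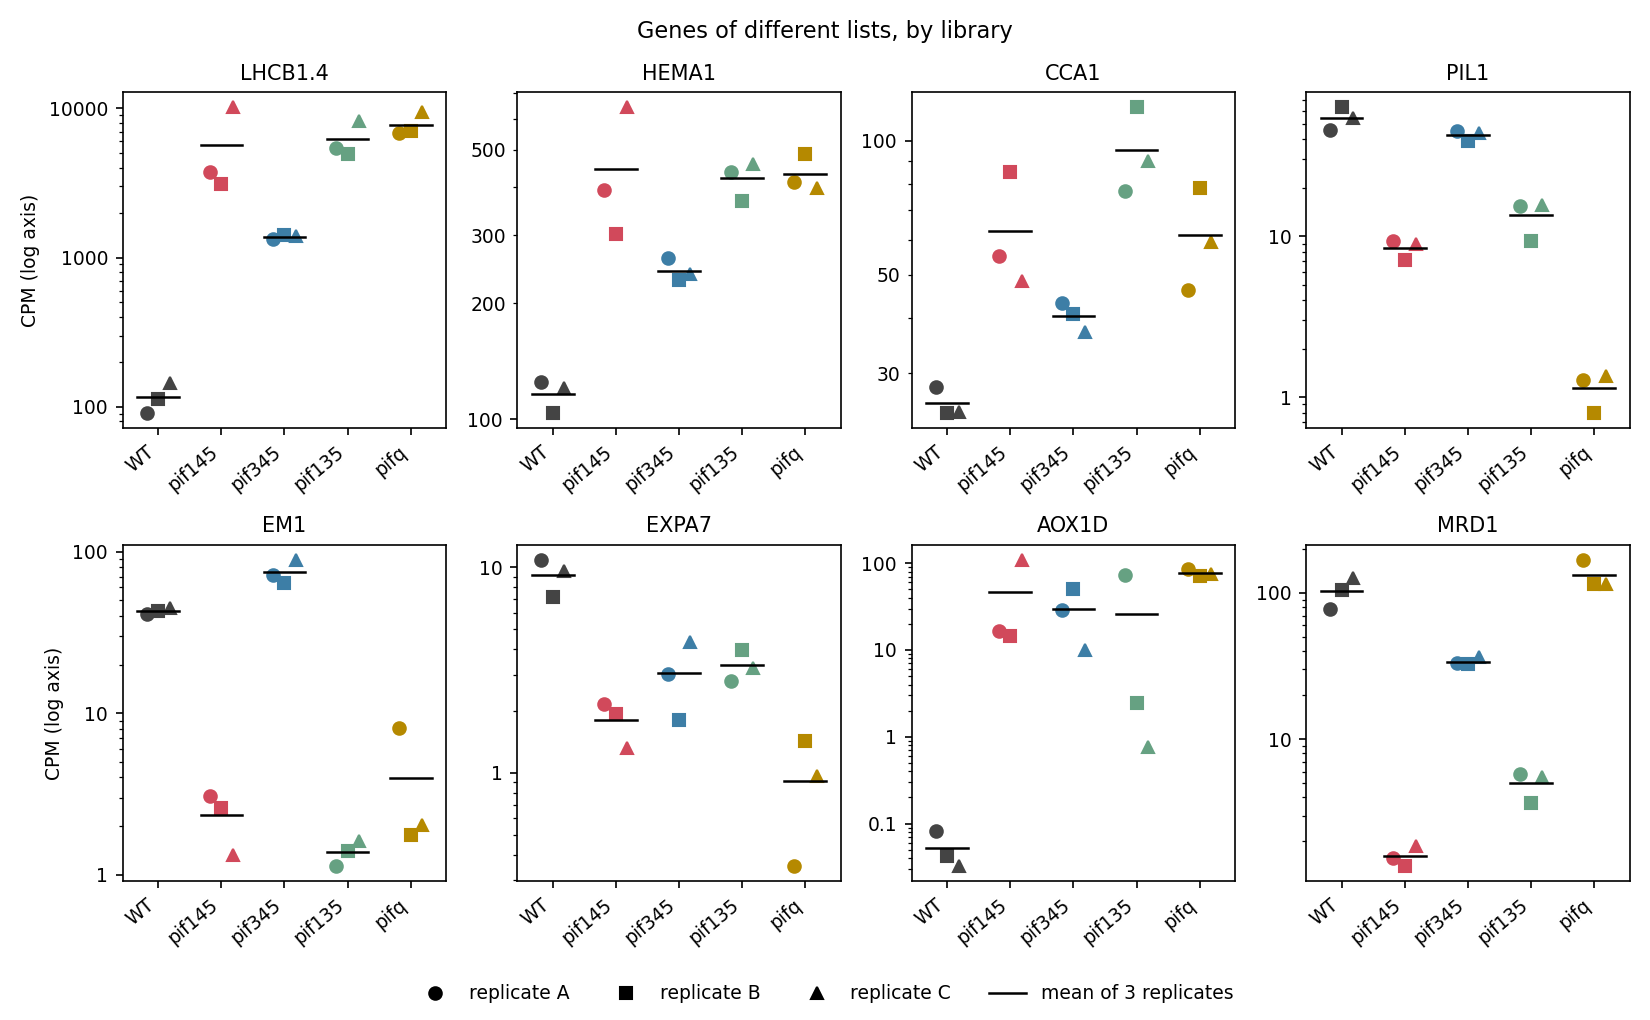
CPM (log axes) of 8 genes in each library of WT, pif145, pif345, pif135 and pifq, with a line at the mean of 3. EM1 is at a mean of 2.34 CPM in pif145 and 74.8 in pif345, PIL1 in pif145 (7.10 to 9.28 CPM) lies between WT and pifq, and AOX1D is far higher in pif145 C (108 CPM) than in A and B.

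Markers of root hairs were lower. Of 10 root hair genes 6 fell and 0 rose (median -1.88), with 3 falls without pif145 C. A call as lower was reached by 5.51% of all tested loci. EXPA7, an expansin of root hair cells, held 10.8, 7.13 and 9.56 CPM in WT and 2.17, 1.94 and 1.32 CPM in pif145 (-2.32 ± 0.35, adjusted p = 6.15e-05). ADF8, an actin-depolymerising factor, fell by 2.36 ± 0.41, and PRP1, a proline-rich wall protein, by 2.50 ± 0.59 (adjusted p = 0.00555, and 0.0517 without pif145 C). The list took 107, 54.1 and 73.8 CPM in WT and 23.6, 31.3 and 9.11 CPM in pif145. Of 7 stomatal lineage genes FAMA, which specifies guard cells, was called (0.76 ± 0.23, adjusted p = 0.0277), and the call was lost without pif145 C (0.229), pif145 A (0.0538), WT A (0.101) or WT B (0.111).

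Several of the largest rises were those of stress and defence genes. AOX1D (AT1G32350, chr1:11666886-11668690), an alternative oxidase of the mitochondrial respiratory chain, held 0.0821, 0.0428 and 0.0329 CPM in WT, 5 reads in all, and 16.4, 14.3 and 108 CPM in pif145. The adjusted p was 7.48e-05, and 0.000451 without pif145 C. The fitted fold changes of genes with so few WT reads depend on the prior count and are not given here. CYP71A12, a cytochrome P450 of indole defence compounds, held 0.287, 0.214 and 0.131 CPM in WT and 8.02, 18.8 and 73.9 CPM in pif145 (adjusted p = 6.89e-05, and 0.000475 without pif145 C), and PAD3, of camalexin synthesis, 0, 0.0856 and 0 CPM and 0.869, 4.83 and 7.73 CPM (adjusted p = 0.00267, and 0.0153 without pif145 C). CYP71A12 and its neighbour in sequence CYP71A13 may share reads, and the CYP71A13 call (adjusted p = 0.021) was lost without pif145 C (0.244) or any single WT library.

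Replicate C was the highest in AOX1D, CYP71A12 and PAD3. Of the other largest rises, PLA2A, a lipid acyl hydrolase of defence, held 4.60, 5.91 and 5.03 CPM in WT and 62.8, 58.6 and 592 CPM in pif145 (5.52 ± 0.91, adjusted p = 0.000244). Without pif145 C its log2 fold change was 3.55 (adjusted p = 0.00323). CCOAMT, a caffeoyl-CoA methyltransferase family gene, held 0.986, 0.813 and 0.394 CPM in WT and 14.5, 25.4 and 120.0 CPM in pif145 (6.18 ± 0.97, adjusted p = 0.000139, and 4.76 without pif145 C). AT1G26380, of the berberine bridge enzyme family, held 1.4, 1.22 and 1.54 CPM in WT and 24.7, 42.6 and 199.5 CPM in pif145 (6.0 ± 0.93, adjusted p = 0.000109, and 4.6 without pif145 C). In counts, 3 of 9 camalexin and defence genes rose and 0 fell (2 rises without pif145 C). Of 8 mitochondrial stress genes 3 rose (2 without pif145 C) and 1 fell, the dicarboxylate carrier DIC2 (-2.45 ± 0.42). Over all tested loci 6.53% were called higher and 5.51% lower.

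The summed camalexin and defence list took 160.4, 130.1 and 403 CPM in pif145 A, B and C against 71.1 to 138 in WT, and the mitochondrial stress list 127, 102 and 400.3 CPM against 87.9 to 140.1. In both lists A and B lay within or near the WT range and C above it. What the deviation of replicate C contributes to these rises was not tested. TCH3, a touch-induced calmodulin-like protein, held 13.0, 22.1 and 69.0 CPM in pif145 and was not called without C (adjusted p = 0.219) or WT A (0.0611). The 10 heat shock genes had 0 calls by edgeR, with the smallest adjusted p, 0.118, for the plastid protein HSP21. An unadjusted p under 0.05 was reached by 2 of them, and DESeq2 called 0.

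In smaller lists single members were called. Over all tested loci 12% were called, and these few calls are not read as a change of a list. In the glucosinolate list, whose products deter herbivores, 3 of 12 rose and 1 fell. The rises numbered 1 without WT A and 1 with only the 2 genotypes, and that of NSP5 was lost without WT A, WT B, pif145 A or pif145 C (adjusted p of 0.0546 to 0.127). ESM1, which favours isothiocyanates among the breakdown products, held 1.07, 1.33 and 2.37 CPM in WT and 14.5, 14.3 and 18.1 CPM in pif145 (3.29 ± 0.42, adjusted p = 8e-06), and the nitrile specifier NSP2 fell by 4.17 ± 0.72 (adjusted p = 0.000356, and a log2 fold change of -4.89 without pif145 B). The myrosinase TGG1 rose by 1.02 ± 0.28 (adjusted p = 0.0159), a call lost without pif145 B, WT A or WT C (0.0673 to 0.095). In the jasmonate and wound list JAZ1, a repressor of jasmonate signalling, fell by 0.97 ± 0.32 (adjusted p = 0.0445), a call lost when any 1 of the 6 libraries was left out, as was that of CHI, the chalcone isomerase of the flavonoid list (0.75 ± 0.25, adjusted p = 0.0457). In the iron and copper list BHLH39, a regulator of iron uptake, rose by 1.5 ± 0.34 (adjusted p = 0.00459, and 0.0599 without pif145 C), and the ferritin FER3 fell by 0.74 ± 0.25 (adjusted p = 0.0488), a call kept in the fit without pif145 A and lost without any single other library (0.0721 to 0.296). Of 8 reference genes 0 were called, with UBQ10 at 0.29 ± 0.21 (adjusted p = 0.379 by edgeR), and 0 reached an unadjusted p under 0.05 or a call by DESeq2. Among the directions given as 0 for other lists, an unadjusted p under 0.05 was reached by 2 falls of chlorophyll genes and 1 rise of a gibberellin gene, and by 0 genes of the antenna, photosystem, clock, shade, cell wall, root hair and defence lists. DESeq2 called 0 in each of these directions.

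The largest fall of all was that of MRD1 (AT1G53480, chr1:19963047-19964712), a gene named for its response in an mto1 mutant. It held 77.7, 104 and 127 CPM in WT and 1.54, 1.37 and 1.85 CPM in pif145, and the groups lay far apart (-6.02 ± 0.35, adjusted p = 4.47e-12). In pifq it held 167, 115 and 115 CPM, in pif345 33, 32.4 and 36.4 CPM and in pif135 5.77, 3.66 and 5.54 CPM, so that pif145 was the lowest of these genotypes. Directional libraries were made per the labels, but whether strand was used in counting is not given in the sources used here. HEI10, which overlaps MRD1 on the opposite strand, fell from 4.39, 7.15 and 7.0 CPM to 1.54, 0.710 and 1.32 CPM (-2.37 ± 0.33, adjusted p = 2.76e-05). QQS, an Arabidopsis-specific gene that affects starch content, held 1.19, 1.16 and 0.854 CPM in WT, 16.5, 19.5 and 16.4 CPM in pif145 and a mean of 50.9 CPM in pifq (4.02 ± 0.36 against WT, adjusted p = 7.25e-08).

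Seedlings that keep PIF3 differed from pifq, which lacks all 4 PIF genes, in 103 loci, with 83 higher in pif145 (0.444%) and 20 lower (0.107%). Replicates with the same letter deviated together in these genotypes, and with the letter as a block the count was 181. The count was 47 to 96 when 1 library was left out, the lowest without pifq A. Without pif145 C it was 76, with 49 higher and 27 lower in pif145. Besides PIF3 itself, the largest difference among the listed genes was that of ELIP1 (AT3G22840, chr3:8084405-8085669), at 7.42, 8.34 and 8.85 CPM in pif145 and 0.0885, 0.142 and 0.193 CPM in pifq (5.83 ± 0.39, adjusted p = 5.9e-11). WT held 19.8, 22.7 and 25.7 CPM, above every pif145 library. ELIP2, its close relative, held 58.1, 49.2 and 54.9 CPM in pif145 and 3.10, 3.02 and 3.43 CPM in pifq (4.09 ± 0.36, adjusted p = 2.91e-08), and did not pass the test against WT (-0.50 ± 0.31, adjusted p = 0.316).

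Other light regulators shared this direction against pifq. BBX23, a B-box protein, was higher by 4.15 ± 0.66 (adjusted p = 0.000675, and 5.27 on the log2 scale without pifq C), the bZIP factor HY5, a promoter of light development, by 1.19 ± 0.25 (adjusted p = 0.0138), and its homologue HYH by 1.63 ± 0.38 (adjusted p = 0.0414). The HY5 and HYH calls were both lost without pif145 A, pif145 B, pifq A or pifq C, at adjusted p of 0.0788 to 0.128 and 0.0555 to 0.326. PIL1 and HFR1, low against WT, were higher than in pifq by 2.87 ± 0.29 (adjusted p = 4.45e-07) and 1.89 ± 0.30 (adjusted p = 0.000675), at pifq means of 1.15 and 4.86 CPM. XTH15, a wall enzyme of the shade list, was higher by 1.87 ± 0.33. With only the 2 genotypes in the fit, the calls of HY5, HYH, HFR1 and XTH15 were lost (adjusted p of 0.496, 0.724, 0.0741 and 0.125), and with the replicate letter as a block in that fit those of HY5 and XTH15 (0.0801 for both). None of the 21 antenna genes (0) differed from pifq by edgeR, also in every other setting run, DESeq2 included, and 2 reached an unadjusted p under 0.05, against 8.09% of all tested loci. Of 24 seed genes 1 differed, OLEO3.

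In all, 23 loci were called lower than WT and higher than pifq, so that pif145 lay between them. Both comparisons use the same pif145 libraries, and the 23 were chosen by their calls, so their order is a description. Besides PIL1, HFR1, ELIP1 and OLEO3 they include PGL2, a 6-phosphogluconolactonase, the transcription factor MYB10, the vacuolar water channel TIP2;3, the stress gene LTI78 and the caleosin RD20. OLEO3 held 156, 174 and 162 CPM in WT, 44.1, 39.5 and 34.5 in pif145 and 11.7, 12.3 and 8.97 in pifq. MYB10 held 77.7, 68.8 and 47.6 CPM in WT, 24.8, 17.5 and 23.8 in pif145 and 4.43, 2.6 and 4.2 in pifq. When 1 library was left out, 15 to 19 of the 23 kept their call against WT, the fewest without WT A, and 13 to 17 that against pifq, the fewest without pifq C. With only the 2 genotypes compared in the fit, 12 and 7 were kept, and 11 and 8 with the replicate letter as a block in that fit. Among those named, the call against WT was lost in at least 1 fit without a library for PGL2 (WT A), RD20 (WT B, WT C or pif145 C), TIP2;3 (any library but pif145 C) and LTI78 (WT A, WT B, pif145 A or pif145 B). The call against pifq was lost for RD20 (without pif145 A, pif145 B, pifq B or pifq C) and LTI78 (without pifq C). The reverse order, above WT and below pifq, had 2 loci, QQS and AT1G26250, each of which lost the call against pifq without pif145 A or pifq C, among others, while 8 loci were above both and 5 below both.

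**Figure D5:**
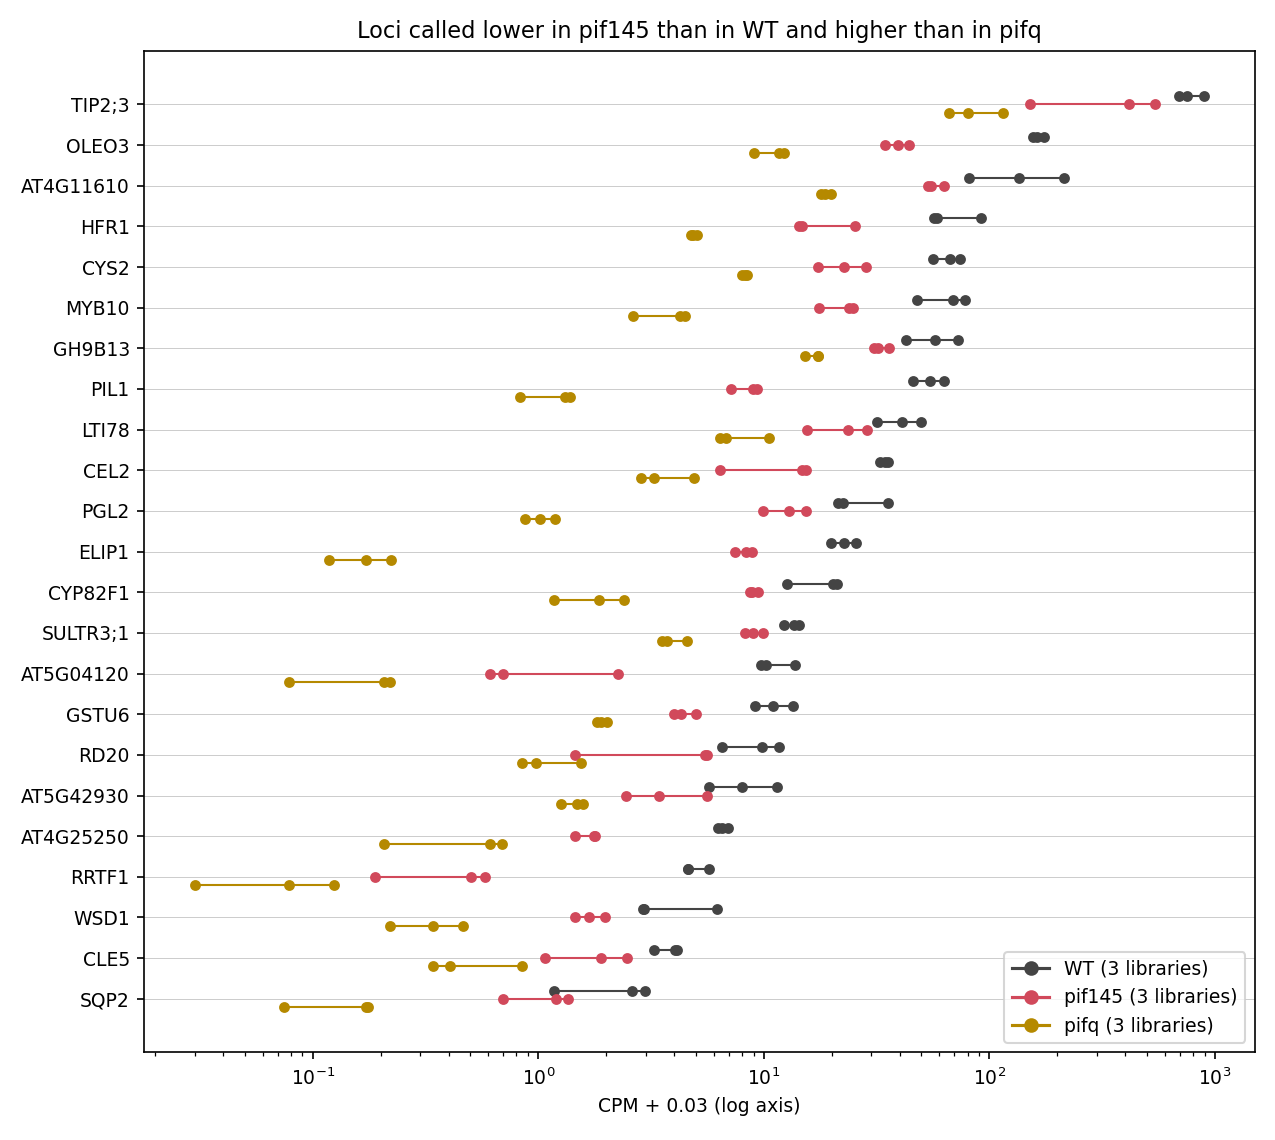
CPM + 0.03 (log axis) in the 3 libraries each of WT, pif145 and pifq for the 23 loci called lower in pif145 than in WT and higher than in pifq. Lines join the lowest and highest library of a genotype; ELIP1 has 7.42 to 8.85 CPM in pif145 and 0.0885 to 0.193 CPM in pifq.

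Of the windows before these 23 loci, 7 held a G-box (30.4%, against 7.63% of all windows) and 5 a PBE-box (21.7%, against 11.3%). The windows of ELIP1 (TAIR10.1, chr3:8085670-8085919, minus strand), OLEO3 (chr5:20819818-20820067, plus strand) and RRTF1 (chr4:16451626-16451875, plus strand), the last an ERF transcription factor of the redox response, are printed since their G-boxes accompany levels between WT and pifq. Capitals mark each G-box, and in OLEO3 also 1 PBE-box, the match between its 2 G-boxes. The G-box of ELIP1 starts 66 bases before the gene, those of OLEO3 169 and 40 bases and that of RRTF1 134 bases.
ELIP1: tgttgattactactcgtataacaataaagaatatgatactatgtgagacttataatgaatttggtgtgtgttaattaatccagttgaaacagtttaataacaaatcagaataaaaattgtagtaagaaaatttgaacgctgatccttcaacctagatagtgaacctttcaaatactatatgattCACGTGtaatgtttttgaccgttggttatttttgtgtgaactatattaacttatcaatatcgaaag
OLEO3: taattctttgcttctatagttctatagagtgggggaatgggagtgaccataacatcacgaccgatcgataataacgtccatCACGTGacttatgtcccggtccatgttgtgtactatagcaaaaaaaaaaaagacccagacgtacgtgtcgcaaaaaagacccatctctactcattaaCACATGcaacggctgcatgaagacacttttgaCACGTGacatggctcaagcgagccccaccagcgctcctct
RRTF1: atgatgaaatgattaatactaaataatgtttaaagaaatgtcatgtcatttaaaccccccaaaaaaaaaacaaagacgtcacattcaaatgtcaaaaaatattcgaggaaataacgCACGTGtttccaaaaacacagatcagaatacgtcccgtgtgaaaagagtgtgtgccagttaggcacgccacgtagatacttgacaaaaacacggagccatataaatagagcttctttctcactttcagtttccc

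RRTF1 held 5.71, 4.56 and 4.60 CPM in WT, 0.553, 0.474 and 0.159 CPM in pif145 and 0, 0.0944 and 0.0482 CPM in pifq. It fell by 3.6 ± 0.45 against WT (adjusted p = 6.54e-06), and its adjusted p against pifq was 0.0418, a call kept without pif145 C and lost without any single other library of the pair (0.06 to 0.26).

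Against pif345, which keeps PIF1, pif145 differed most in the seed genes. Of the 283 loci called, 181 were lower in pif145 (0.969%) and 102 higher (0.546%), a split that became 242 lower and 51 higher with scaling by total counts, where the median of all loci moved from 0.03 to -0.16. Without pif145 C 168 loci were called, with 124 lower and 44 higher in pif145. The list of 24 seed genes had 15 lower, and 9 lower without pif145 C or without pif145 A. EM1 held 3.08, 2.60 and 1.32 CPM in pif145 and 72.0, 63.9 and 88.4 CPM in pif345 (-4.99 ± 0.54, adjusted p = 3.45e-06). All 3 pif345 libraries lay above all 3 of WT. SESA5, a 2S albumin, had a log2 fold change of -4.69 ± 0.96 against pif345 (adjusted p of 0.0518 and 0.055 without pif145 A or pif145 C), M17, a late embryogenesis protein, -4.78 ± 0.95 and OLEO2 -3.76 ± 0.55. Without pif145 B the values were -6.32 for SESA5 and -6.43 for M17. With only the 2 genotypes in the fit 12 seed genes were lower, and the M17 call was lost (adjusted p = 0.102). With the replicate letter as a block in that fit 8 seed genes were lower. SESA5 and M17 lost their calls there (adjusted p of 0.178 and 0.195).

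Of 14 gibberellin genes 2 were lower than in pif345 and of 16 shade-responsive regulators 1, PIL1. The differences were -5.43 ± 0.70 for GASA2, -4.90 ± 0.54 for GASA3, -4.95 ± 0.67 for GA20OX3 and -1.66 ± 0.26 for GA3OX1. PIL1, at 45.0, 38.8 and 43.9 CPM in pif345, differed by -2.34 ± 0.27 (adjusted p = 4.27e-06). Higher than in pif345 were LHCB1.4 (2.04 ± 0.47), LHCB1.5 (1.52 ± 0.39) and LHCB2.2 (1.18 ± 0.30) of 21 antenna genes, and these 3 calls were lost without pif145 C or any 1 pif345 library, and 2 of them without pif145 A. With only the 2 genotypes in the fit the 3 calls and that of HY5 were lost. RVE1 was higher by 1.69 ± 0.33 (adjusted p = 0.00412), at 14.2, 15.5 and 12.2 CPM in pif345, as was HY5 by 1.02 ± 0.24 (adjusted p = 0.0226), a call kept without pif145 C and lost without any single other library of the pair (0.0864 to 0.165). AT1G04660, a glycine-rich protein gene, had the largest rise, from 6.47, 5.45 and 4.38 CPM in pif345 to 31.0, 31.5 and 38.3 CPM in pif145, where WT held 3.41, 2.23 and 3.09 CPM.

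Against pif135, which keeps PIF4, 21 loci differed, with 13 higher in pif145 (0.0696%) and 8 lower (0.0428%). Replicates with the same letter deviated together here too, and with the letter as a block 30 loci were called. The count was 73 without pif135 A and 11 without pif145 A or pif135 C. ELIP1, at 0.175, 0.166 and 0.162 CPM in pif135, was higher in pif145 by 5.58 ± 0.37 (adjusted p = 5.78e-11), ELIP2 by 3.58 ± 0.35 (adjusted p = 4.65e-07) and BBX23 by 4.04 ± 0.62 (adjusted p = 0.00117). PGL2 was higher by 2.15 ± 0.27 (adjusted p = 5.01e-05), and QQS differed by -2.67 ± 0.33 (adjusted p = 3.71e-05). With only the 2 genotypes in the fit, the calls of BBX23, PGL2 and QQS were lost (adjusted p of 0.201, 0.107 and 0.166), as they were with the letter as a block in that fit (0.248, 0.145 and 0.236). PIL1 and HFR1 did not pass this test, at -0.67 ± 0.26 and -0.10 ± 0.29 (adjusted p of 1.0 by edgeR for both).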

How the data were processed

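The authors deposited raw read counts per locus, 1 column for each of 3 replicates of 10 genotypes. Per the labels, 3′ fragments of polyadenylated RNA were sequenced directionally, with technical duplicate runs that the deposited columns do not separate. The submitters' processing notes name TAIR10, Bowtie 0.12.7 and edgeR, with no role for edgeR. In 3 columns (WT B, pif3 B, pif5 C) the last, unnamed row is not whole, so those columns as deposited by the authors were treated as estimated counts; how the counts were made is not given in the sources used here beyond these notes. Values of all named loci are whole, and the unnamed row was dropped.

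Of 33322 loci, 32834 matched the TAIR10.1 reference from RefSeq, which gave symbols, coordinates and upstream windows. All 30 libraries were fitted together in edgeR 4.0.16 (R 4.3.3) with TMM scaling, filterByExpr at a minimum count of 10, robust quasi-likelihood tests and Benjamini-Hochberg adjustment, without a replicate term. The SE was taken as the size of the log2 fold change divided by the root of F. CPM uses TMM-scaled library sizes. Columns were separate libraries: chi-square over degrees of freedom between replicates was 61.8 to 154 in WT and 115 to 184 in pif145. P-values measure the spread between replicates, estimated over all 30 libraries together and not from WT and pif145 alone. Scripts were tested on simulated data.

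Same-letter replicates were checked for pairing by correlating their deviations from genotype means. The correlations were 0.238 to 0.47 with pifq and 0.196 to 0.781 with pif135, where all passed 0.1.

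The members and the 30 gene lists were chosen with earlier results of these data known. Genes named are the 4 PIF genes, the 12 largest called rises and falls with separated replicates and a mean of 5 CPM or more, the 3 largest called changes per list (5 in the shade, antenna and light-signalling lists) or the smallest p, and the 3 largest in each direction against pifq, pif345 and pif135. Further genes were chosen after their values were seen. Of 489 listed loci, 443 passed the filter. The alternatives were other scalings, other filters on low counts, DESeq2 1.42.0, a fit of the 2 genotypes alone, the replicate letter as a block, leaving out the libraries labelled pif134, and leaving out each replicate.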

Additional observations from a re-analysis of the deposited data

How the results depend on the processing

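For pif145 against WT (2248 loci called), the count was 983 with only the 2 genotypes in the fit. Same-letter replicates of these genotypes did not deviate together (correlations of -0.0894 to 0.268), and the replicate block gave 4050 calls, or 1023 with only the 2 genotypes. Leaving out 1 replicate gave 865 to 2579. Other scalings, filters, DESeq2 and the fit without the libraries labelled pif134 stayed within 1.5 times the main count. Against pifq (103), the count was 64 with a mean of at least 5 CPM, 175 with DESeq2, 18 with only the 2 genotypes, 181 with the replicate block, 32 with the replicate block and only the 2 genotypes, and 47 to 96 without 1 replicate. Against pif345 (283), the corresponding counts were 172 with the filter, 162 with 2 genotypes, 492 with the replicate block (correlations of 0.0925 to 0.447), 171 with both, and 167 to 253 without 1 replicate. Against pif135 (21), they were 37 with DESeq2, 3 with 2 genotypes, 3 with the replicate block and 2 genotypes, and 11 to 73 without 1 replicate. The cause was not tested. None of the alternatives run (0) reversed a named gene. Of 88 genes named by the rule above and called against WT, 66 kept the call in all 6 fits without 1 replicate. In the other settings 71 kept it wherever they were tested, and genes that a filter left out there were not counted as lost. The further genes chosen after their values were seen are outside these counts, and several of them lost calls. Depth limits genes with few WT reads, such as AOX1D with 5.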
